A study of Mus musculus with 8 samples.

Results

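The genes described here encode the enzymes of the citrate cycle, the enzymes that refill or drain it, the enzymes of glutamate and glutamine, and the mitochondrial carriers of their substrates. They were taken as the rows of the expression table whose symbol equals 1 of 32 listed symbols, and all 32 were found among the 19301 genes of the table. Of the 32 genes, 16 were grouped with the cycle, 5 with anaplerosis and the malic enzymes, 6 with glutamate and glutamine, and 5 with the carriers. The cycle group also holds the cytosolic enzymes Aco1, Idh1 and Mdh1 and the mitochondrial NADP-dependent enzyme Idh2. Primary tendon stem cells (TSCs) from the patellar tendons of C57BL/6J mice were cultured for 4 days in 1 of 2 media before their mRNA was sequenced. The HFHG medium held a high concentration of glucose together with palmitic acid, a saturated fatty acid, and the low glucose (LG) medium held a low concentration of glucose and only the carrier of the palmitic acid. Each group had 4 replicates. Because both were changed at once, an effect of glucose and an effect of palmitic acid cannot be told apart.

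The citrate cycle oxidizes the acetyl group of acetyl-CoA in the mitochondrial matrix and hands the electrons to the respiratory chain. Its intermediates leave for the synthesis of lipids, glucose, haem and amino acids, and anaplerotic reactions such as pyruvate carboxylation and the entry of glutamine carbon through glutamate and 2-oxoglutarate replace them. Several steps have a cytosolic and a mitochondrial isozyme encoded by separate genes, and carriers in the inner membrane exchange citrate, malate, 2-oxoglutarate, aspartate and glutamate between the compartments.

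Expression is given as FPKM, the fragments of a gene divided by its length and by the fragments of the library. The recovered library totals were 34308108 to 37362725 reads, and a member that passed the filter on low values had at least 35 reads in each library. Between replicates the variance of the reads was 3.45 to 4.77 times the Poisson variance, except in the 3 pairs with LG replicate 4, where it was 8.18 to 12 times. Markers listed for the tendon lineage were present in all libraries (8 of 8 listed; summed FPKM 1858 to 1910 in HFHG and 1166 to 1201 in LG), although the tendon transcription factor Scx and the tenomodulin gene Tnmd were low, at most 2.88 and 1.19 FPKM. These markers did not move together. Col1a1 (522 to 541 FPKM in HFHG, 202 to 211 in LG), Thbs4, Tnc, Fmod and Tnmd were higher in HFHG without overlap. Mkx was lower without overlap (6.05 to 7.35 in HFHG, 7.77 to 9.30 in LG), and Scx and Dcn overlapped. The 6 macrophage and leukocyte markers were also present (summed FPKM 1703 to 1754 in HFHG and 1861 to 1941 in LG, none at 0), with Lyz2 at 1615 to 1662 and 1736 to 1811 FPKM and the macrophage antigen Adgre1 at 25.3 to 27.9 and 36.7 to 39.3 FPKM. The 5 adipocyte markers summed to 66.7 to 73.1 and 23.7 to 29.7 FPKM, nearly all from Fabp4, with Adipoq, Plin1, Cidec and Pparg below a mean of 0.5 FPKM. The sum of 4 endothelial markers stayed at or below 0.593 FPKM, and that of the 5 skeletal muscle markers in the table at or below 4.36 FPKM (0.736 to 1.82 in HFHG and 3.51 to 4.36 in LG). Among the muscle markers Acta1 was highest, at 0.610 to 1.22 FPKM in HFHG and 3.05 to 3.90 FPKM in LG. All these sums except the endothelial one differed between the media without overlap, and their part in the differences below was not tested. In bulk RNA, fewer cells of a type and less RNA per cell cannot be told apart.

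HFHG medium changed many genes of this network by small amounts and in both directions. Glutamine synthetase (Glul), pyruvate carboxylase (Pcx) and cytosolic isocitrate dehydrogenase (Idh1) rose, and cytosolic aspartate aminotransferase (Got1) fell. No member moved by more than 2-fold. Of the 32 members, 31 passed the filter on low values, and at an adjusted p below 0.05 by limma 14 of these 31 rose (45.2%) and 9 fell (29.0%). Over the 11710 genes tested, 34% rose and 30.8% fell at the same threshold, and the median log2 fold change was 0.055 in the members and 0.017 in all genes. In size, the median log2 fold change was 0.21 in the members and 0.25 in all genes. The split between the directions followed the scaling of the libraries: with FPKM rescaled to the same sum 17 members rose and 6 fell, and with median-ratio scaling 11 rose and 11 fell. The values of the 4 HFHG and the 4 LG libraries did not overlap in 20 of the 31 members (64.5%), against 59.2% of all genes tested. A log2 fold change of at least 0.5 in size at an adjusted p below 0.05 was measured in 4 members, Glul, Pcx, Idh1 and Got1 (12.9%; 22% of all genes), and a log2 fold change above 1 in size at an unadjusted p below 0.05 in 0 members (5.33% of all genes).

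**Figure D1:**
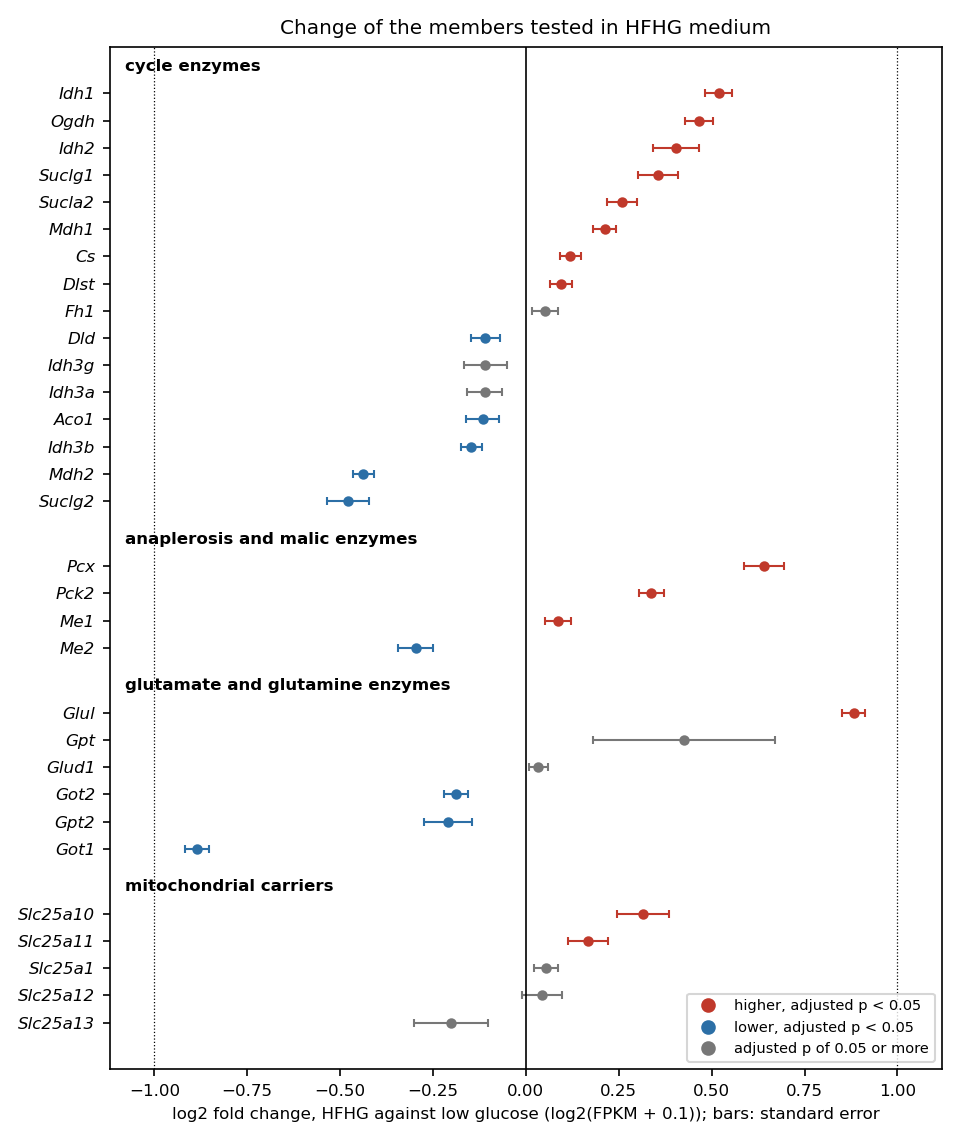
Log2 fold change (x axis, HFHG against LG, on the log2(FPKM + 0.1) scale) of the 31 members tested, grouped by role; points are estimates of limma with their standard errors (n = 4 libraries per group), red for higher and blue for lower at an adjusted p below 0.05, and dotted lines mark a log2 fold change of 1 in either direction. Glul lies at 0.88 and Got1 at -0.88, and the other members lie between -0.48 and 0.64.

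The promoter windows of the 4 genes with the largest called changes are shown. Whether the short sequences they hold bear on these changes was not tested. Each run is the 250 bases before an annotated start of the gene, 5′ to 3′ on the strand of the gene, from RefSeq on GRCm38.p6. For Pcx and Idh1, which have 2 windows each, the 1 shown is that of the start farthest upstream. Capitals mark matches on either strand to the CCAAT box (CCAAT), the GC box (GGGCGG) or the E-box (CACGTG).
Glul, chr1:153899679-153899928, plus strand: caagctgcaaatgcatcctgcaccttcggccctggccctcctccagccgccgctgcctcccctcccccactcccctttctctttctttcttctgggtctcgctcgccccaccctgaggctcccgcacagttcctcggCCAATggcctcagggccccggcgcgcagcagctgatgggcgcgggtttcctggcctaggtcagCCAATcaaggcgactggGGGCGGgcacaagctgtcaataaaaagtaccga
Got1, chr19:43524606-43524855, minus strand: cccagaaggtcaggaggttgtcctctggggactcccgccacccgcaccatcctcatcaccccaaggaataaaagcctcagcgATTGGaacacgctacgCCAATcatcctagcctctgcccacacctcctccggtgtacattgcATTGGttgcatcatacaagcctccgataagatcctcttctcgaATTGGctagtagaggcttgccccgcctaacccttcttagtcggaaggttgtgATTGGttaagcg
Pcx, chr19:4510222-4510471, plus strand: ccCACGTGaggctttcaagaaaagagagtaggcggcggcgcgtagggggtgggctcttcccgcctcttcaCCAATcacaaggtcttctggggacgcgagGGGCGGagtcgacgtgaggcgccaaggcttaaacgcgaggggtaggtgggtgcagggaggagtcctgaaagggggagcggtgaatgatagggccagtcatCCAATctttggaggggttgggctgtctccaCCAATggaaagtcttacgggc
Idh1, chr1:65186480-65186729, minus strand: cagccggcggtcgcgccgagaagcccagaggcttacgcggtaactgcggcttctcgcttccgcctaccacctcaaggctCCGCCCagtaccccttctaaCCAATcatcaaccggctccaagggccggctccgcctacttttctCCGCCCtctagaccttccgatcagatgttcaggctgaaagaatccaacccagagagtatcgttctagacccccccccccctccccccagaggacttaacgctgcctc
The Got1 window held 5 CCAAT boxes, and 70 of the 32851 windows of all genes (0.213%) held at least 5. This cut-off was the count of the Got1 window itself, so the share is a description and not a test. The Glul window held 2 CCAAT boxes and 1 GC box. The Pcx window shown held 3 CCAAT boxes, 1 GC box and 1 E-box, and the Idh1 window shown held 1 CCAAT box and 2 GC boxes. The other Pcx window held 0 matches and the other Idh1 window 1 GC box only. Which start these cells use was not tested. Of the 32 members, 29 were matched to 37 windows, and Idh3a, Me2 and Gpt were not matched. Of the 37 member windows, 20 held a CCAAT box, 21 a GC box, 6 an E-box and 3 the antioxidant response sequence TGACNNNGC. Of all windows, 33.9%, 32.7%, 6.02% and 10.2% held these sequences, in the same order. All windows were not limited to genes tested here. Repeated windows of a gene were dropped from them but not from the member windows. The E-box was in windows of Ogdh and Pcx, which rose, and of Slc25a1 and Slc25a13, which were not called. The antioxidant response sequence was in windows of Dlst, Idh3g and Sucla2. The amino acid response sequence TGATGNAAT was in 0 member windows (0.816% of all windows). Members that rose and members that fell both carried the CCAAT box. The motifs were searched one by one on both strands, their matches may overlap, and a match is a run of letters, not a bound site.

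Among the 16 genes grouped as cycle enzymes, 8 rose (50%, against 34% of all genes tested), 5 fell (31.25%, against 30.8%) and 3 did not pass. The citrate synthase and aconitase genes of this group changed little. The FPKM of citrate synthase (Cs), which joins acetyl-CoA to oxaloacetate, was 62.4 to 65.2 in HFHG and 56.4 to 59.6 in LG, a log2 fold change of 0.12 (SE 0.028, limma adjusted p = 0.00227), where SE is the standard error. Aco1, the cytosolic aconitase that also binds iron-responsive elements, was at 10.7 to 12.2 and 12.5 to 12.6 FPKM with a log2 fold change of -0.12 (SE 0.044, limma adjusted p = 0.0362). This call was lost with FPKM rescaled to the same sum (adjusted p = 0.295) and without HFHG replicate 3 or 4 or any 1 of the LG libraries (adjusted p = 0.0558 to 0.121).

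The NADP-dependent isocitrate dehydrogenases rose, while the subunits of the NAD-dependent enzyme did not. Idh1, the cytosolic enzyme that makes NADPH, lies on chromosome 1 from 65158616 to 65186479 (GRCm38.p6), and its FPKM was 65.7, 66.8, 67.0 and 69.8 in HFHG libraries 1 to 4, against 47.0, 47.0, 49.7 and 44.2 in LG libraries 1 to 4. The lowest HFHG library stood above the highest LG library, and the log2 fold change was 0.52 (SE 0.036, limma adjusted p = 6.01e-08). Idh2, its mitochondrial counterpart, had 5.19, 4.89, 4.59 and 5.32 FPKM in HFHG and 3.72, 3.60, 3.83 and 3.83 FPKM in LG. These groups did not overlap either, with a log2 fold change of 0.40 (SE 0.063, limma adjusted p = 9.96e-05). The gene length behind the FPKM of Idh2 was 5556 bases, 3.10 times its longest GENCODE transcript of 1790 bases and above the 2588 bases of its exon union, so its level depends on that length. Whether reads from outside the annotated exons bear on its fold change was not tested.

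The 3 subunits of NAD-dependent isocitrate dehydrogenase were at similar or slightly lower levels in HFHG. Idh3a, the catalytic subunit, had 20.9, 22.7, 22.7 and 21.2 FPKM in HFHG and 22.7, 24.6, 25.0 and 22.4 FPKM in LG, and its groups overlapped (log2 fold change -0.11, limma adjusted p = 0.0501). It passed as lower in 9 of 19 alternative settings, among them without HFHG replicate 2 or 3 and without LG replicate 1 or 4 (adjusted p = 0.0219 to 0.0424), and without any other library the adjusted p was 0.121 to 0.146. Idh3b fell slightly, from 61.3 to 65.6 FPKM in LG to 55.2 to 57.9 FPKM in HFHG, with a log2 fold change of -0.15 (SE 0.029, limma adjusted p = 0.000689). Idh3g was at 27.5 to 30.8 and 28.3 to 35.1 FPKM (log2 fold change -0.11, limma adjusted p = 0.111), a change that was -0.15 with median-ratio scaling (adjusted p = 0.0412), -0.16 without LG replicate 2 (0.00979) and -0.06 without LG replicate 1 (0.328). The ratio of Idh2 to Idh3a within a library was 0.229 ± 0.0245 in HFHG and 0.159 ± 0.0111 in LG (SD, n = 4 each), without overlap (exact two-sided permutation p = 0.0286). The ratio of Idh3a to Idh3b was 0.385 ± 0.0234 and 0.376 ± 0.0258 (exact permutation p = 0.657), and that of Idh3a to Idh3g was 0.745 ± 0.0634 and 0.749 ± 0.0983 (exact permutation p = 1; SD, n = 4 each).

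In the 2-oxoglutarate dehydrogenase complex, the subunits moved unequally. Ogdh, the subunit that decarboxylates 2-oxoglutarate, had 20.1, 20.5, 20.8 and 20.2 FPKM in the HFHG libraries and 14.9, 14.7, 15.4 and 14.0 FPKM in the LG libraries. All HFHG values lay above all LG values, and the log2 fold change was 0.47 (SE 0.037, limma adjusted p = 2.43e-07). Dlst, the succinyltransferase core of the complex, had 48.3, 50.5, 49.8 and 52.0 FPKM in HFHG and 47.1, 46.0, 46.8 and 48.0 FPKM in LG. The smallest HFHG value was only just above the largest LG value, and the log2 fold change was 0.09 (SE 0.030, limma adjusted p = 0.0144), a call lost with median-ratio scaling (adjusted p = 0.119) and without HFHG replicate 4 (0.0508). Dld, the dihydrolipoyl dehydrogenase that is shared with the pyruvate dehydrogenase complex, was at 40.2 to 45.6 FPKM in HFHG and 45.2 to 48.6 FPKM in LG, with overlapping groups (log2 fold change -0.11, limma adjusted p = 0.0292). The call of Dld was lost with FPKM rescaled to the same sum (adjusted p = 0.327), with quantile normalization (0.153) and without HFHG replicate 2 or LG replicate 1, 2 or 3 (0.0509 to 0.0886). Within a library, the ratio of Ogdh to Dlst was 0.417, 0.405, 0.418 and 0.389 in HFHG and 0.317, 0.320, 0.329 and 0.292 in LG, a difference of 0.37 on the log2 scale (exact two-sided permutation p = 0.0286).

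The succinyl-CoA synthetase genes moved in opposite directions. This enzyme pairs a common alpha subunit, encoded by Suclg1, with a beta subunit that decides the nucleotide made, Sucla2 for the ATP-forming and Suclg2 for the GTP-forming enzyme. Suclg2 had 8.23, 8.03, 8.12 and 6.96 FPKM in HFHG and 10.9, 10.6, 10.8 and 11.4 FPKM in LG. It was lower in each HFHG library, lowest in replicate 4, and the log2 fold change was -0.48 (SE 0.057, limma adjusted p = 9.82e-06). Sucla2 had 41.6, 38.0, 40.9 and 41.6 FPKM in HFHG and 32.5, 36.1, 33.3 and 33.6 FPKM in LG. Suclg1 had 45.5, 45.8, 44.8 and 43.4 FPKM in HFHG and 34.99, 30.8, 36.9 and 37.9 FPKM in LG. Both rose without overlap between the groups, with log2 fold changes of 0.26 (SE 0.040, limma adjusted p = 0.000104) and 0.36 (SE 0.054, limma adjusted p = 8.81e-05). The ratio of Suclg2 to Sucla2 was accordingly 0.194 ± 0.0187 in HFHG and 0.323 ± 0.0206 in LG (SD, n = 4 each), a log2 difference of -0.74, and the ratio of Suclg2 to Suclg1 was 0.174 ± 0.00985 and 0.313 ± 0.0223, a log2 difference of -0.83 (exact two-sided permutation p = 0.0286 for each). Both separations follow from the single genes, which moved in opposite directions without overlap, so these p-values add nothing to them.

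Malate dehydrogenase shifted from the mitochondrial towards the cytosolic gene. Mdh2, the mitochondrial enzyme that closes the cycle and the most abundant member, had 138, 144, 138 and 139.6 FPKM in HFHG and 189, 184, 186 and 199 FPKM in LG. The groups were well apart, and the log2 fold change was -0.44 (SE 0.028, limma adjusted p = 3.11e-08). Mdh1, the cytosolic enzyme of the malate-aspartate shuttle, had 83.9, 76.6, 77.6 and 77.2 FPKM in HFHG and 68.3, 69.0, 66.9 and 68.0 FPKM in LG, highest in HFHG replicate 1. It rose with a log2 fold change of 0.21 (SE 0.031, limma adjusted p = 6.95e-05). The ratio of Mdh1 to Mdh2 within a library was 0.607, 0.534, 0.562 and 0.553 in HFHG and 0.361, 0.376, 0.360 and 0.341 in LG, a log2 difference of 0.65 (exact two-sided permutation p = 0.0286). As each gene already separated the groups, in opposite directions, this ratio had to separate them too. The ratio of Cs to Mdh2, the enzymes on either side of oxaloacetate, was 0.454 ± 0.0120 in HFHG and 0.309 ± 0.0138 in LG (SD, n = 4 each), without overlap. Fumarase (Fh1), which makes malate from fumarate, was at 29.5 to 30.4 and 27.9 to 30.7 FPKM, with a log2 fold change of 0.05 (SE 0.036, limma adjusted p = 0.224).

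**Figure D2:**
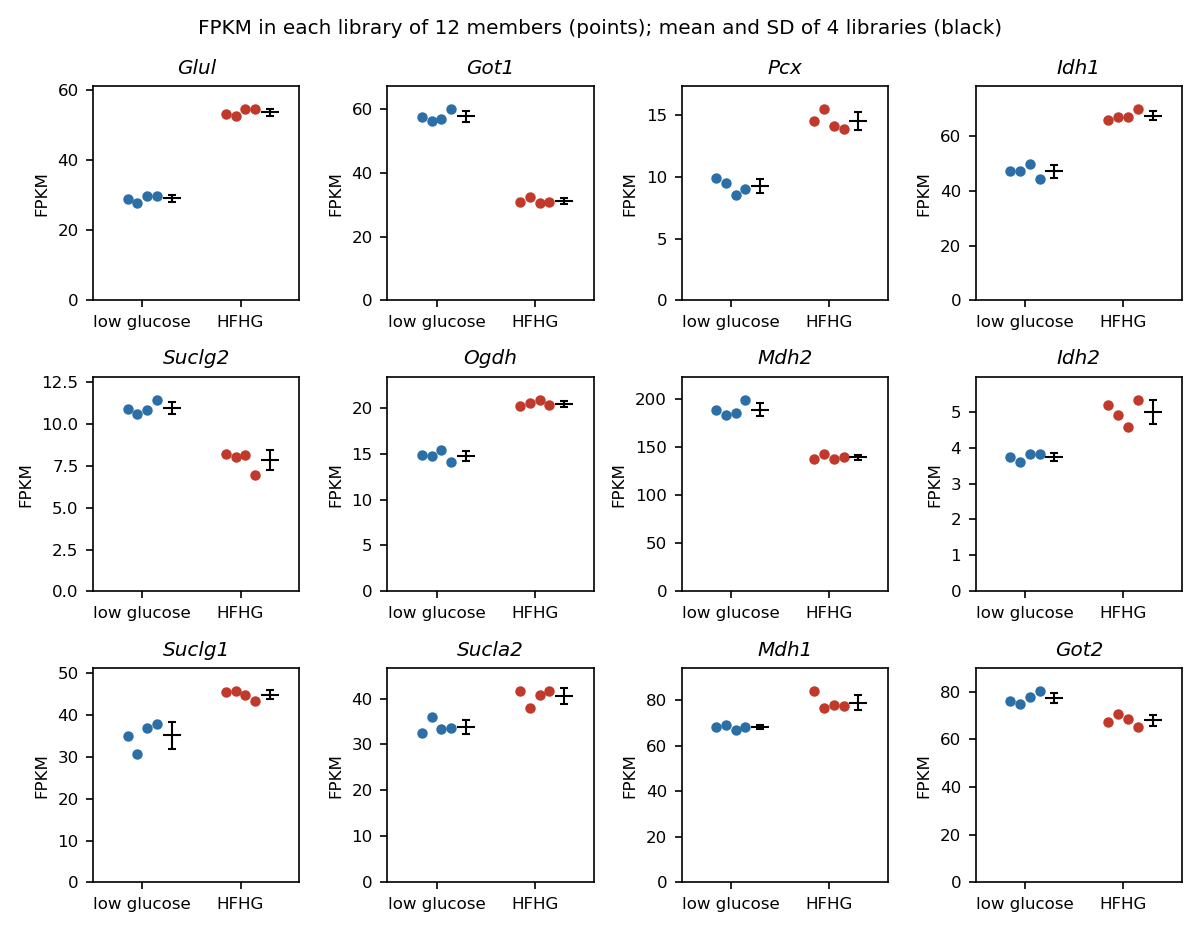
FPKM (y axis, from 0) of 12 members in each of the 4 LG (blue) and 4 HFHG (red) libraries, with the mean and SD of each group in black. Glul is at 52.5 to 54.5 FPKM in HFHG and 27.8 to 29.8 FPKM in LG, Got1 shows the opposite order, and within the succinyl-CoA synthetase genes Suclg2 is lower and Suclg1 and Sucla2 are higher in HFHG.

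Among the 4 anaplerosis and malic enzyme genes tested, 3 rose (75%, against 34% of all genes tested) and 1 fell (25%, against 30.8%). Pcx, the mitochondrial enzyme that carboxylates pyruvate to oxaloacetate, lies on chromosome 19 from 4510472 to 4621752 (GRCm38.p6), and its window shown above held the E-box. Its FPKM was 14.6, 15.5, 14.1 and 13.9 in HFHG libraries 1 to 4 and 9.94, 9.55, 8.58 and 9.02 in LG libraries 1 to 4. The groups did not overlap, and the log2 fold change was 0.64 (SE 0.054, limma adjusted p = 3.84e-07). Pck2, the mitochondrial phosphoenolpyruvate carboxykinase that draws on oxaloacetate, had 28.3, 27.5, 26.7 and 26.3 FPKM in HFHG and 21.2, 21.7, 21.2 and 21.9 FPKM in LG. It rose as well, with a log2 fold change of 0.34 (SE 0.034, limma adjusted p = 1.96e-06), but less than Pcx: the ratio of Pcx to Pck2 was 0.533 ± 0.0213 in HFHG and 0.431 ± 0.0293 in LG (SD, n = 4 each; exact two-sided permutation p = 0.0286).

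The malic enzymes convert malate to pyruvate. Me1, the cytosolic NADPH-forming enzyme, had 36.0, 35.3, 37.1 and 37.2 FPKM in HFHG and 32.9, 35.8, 34.8 and 33.8 FPKM in LG, and 1 LG library reached into the HFHG range. Its log2 fold change of 0.09 (SE 0.034, limma adjusted p = 0.0425) was close to the threshold, and the call was lost with median-ratio scaling (adjusted p = 0.221) and without HFHG replicate 1, 3 or 4 or LG replicate 1, 3 or 4 (0.0545 to 0.130). Me2, a mitochondrial malic enzyme, had 7.30, 6.90, 7.26 and 7.31 FPKM in HFHG and 9.34, 8.77, 8.65 and 8.67 FPKM in LG, and fell in all HFHG libraries with a log2 fold change of -0.30 (SE 0.046, limma adjusted p = 0.000108). The ratio of Me1 to Me2 was 4.94, 5.11, 5.11 and 5.09 in HFHG and 3.52, 4.08, 4.02 and 3.89 in LG, a log2 difference of 0.38 (exact two-sided permutation p = 0.0286). Me3, the other mitochondrial enzyme, was the member under the filter on low values. It had 0.269, 0.328, 0.418 and 0.249 FPKM in HFHG and 0.334, 0.257, 0.379 and 0.415 FPKM in LG, from 124 to 205 reads per library. Its groups overlapped (exact two-sided permutation p = 0.571), and no difference was detected. The lengths behind the FPKM of Me2 and Me3 were 2.27 and 3.04 times their longest GENCODE transcripts.

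Of the 6 glutamate and glutamine enzymes, 1 rose (16.7%, against 34% of all genes tested), 3 fell (50%, against 30.8%) and 2 did not pass. Glul, which joins ammonia to glutamate to make glutamine, lies on chromosome 1 from 153899929 to 153909723 (GRCm38.p6). Its FPKM was 53.1, 52.5, 54.4 and 54.5 in HFHG libraries 1 to 4 and 29.0, 27.8, 29.8 and 29.7 in LG libraries 1 to 4. The mean of the HFHG libraries was 1.85 times that of the LG libraries, and the log2 fold change was 0.88 (SE 0.031, limma adjusted p = 9.81e-11). Glud1, the mitochondrial dehydrogenase that interconverts glutamate and 2-oxoglutarate, had 58.2, 58.0, 57.1 and 58.1 FPKM in HFHG and 57.5, 54.7, 57.6 and 56.4 FPKM in LG. These groups overlapped, with a log2 fold change of 0.03 (SE 0.027, limma adjusted p = 0.281). Its direction depended on the scaling, with -0.0032 after median-ratio scaling and 0.093 (adjusted p = 0.0093) after rescaling to the same sum. The ratio of Glul to Glud1, 2 genes whose enzymes both use glutamate, was 0.912, 0.905, 0.953 and 0.938 in HFHG and 0.505, 0.508, 0.517 and 0.526 in LG, a log2 difference of 0.85 (exact two-sided permutation p = 0.0286).

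The aspartate aminotransferases fell, the cytosolic one more than the mitochondrial one. Got1, on chromosome 19 from 43499752 to 43524605 (GRCm38.p6), encodes the cytosolic enzyme that turns aspartate and 2-oxoglutarate into oxaloacetate and glutamate, and its window above is the one with 5 CCAAT boxes. Its FPKM was 30.7, 32.5, 30.6 and 30.9 in HFHG libraries 1 to 4 and 57.6, 56.2, 56.7 and 59.96 in LG libraries 1 to 4. The groups were far apart, and the log2 fold change was -0.88 (SE 0.032, limma adjusted p = 1.17e-10), close in size to that of Glul and opposite in sign. Got2, the mitochondrial enzyme, had 67.2, 70.8, 68.6 and 65.0 FPKM in HFHG and 76.2, 75.0, 77.8 and 80.3 FPKM in LG, with a log2 fold change of -0.19 (SE 0.032, limma adjusted p = 0.000227). The ratio of Got1 to Got2 within a library was 0.457, 0.459, 0.446 and 0.476 in HFHG and 0.756, 0.750, 0.729 and 0.747 in LG, a log2 difference of -0.70 (exact two-sided permutation p = 0.0286). Of the cytosolic enzymes of the malate-aspartate shuttle, Mdh1 was therefore higher and Got1 lower, and of the mitochondrial ones both Mdh2 and Got2 were lower in HFHG.

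The alanine aminotransferases were less abundant. Gpt, the gene of the cytosolic enzyme, had 1.39, 1.42, 0.621 and 0.643 FPKM in HFHG and 0.815, 0.693, 0.552 and 0.691 FPKM in LG, from 35 to 93 reads per library. HFHG replicates 1 and 2 stood above all other libraries and HFHG replicates 3 and 4 lay within the LG range, so the log2 fold change of 0.42 (SE 0.24, limma adjusted p = 0.145) rests on those 2 libraries. Without HFHG replicate 3 or 4 it passed the threshold (0.61 and 0.59, adjusted p = 0.0419 and 0.0498), and without HFHG replicate 1 or 2 it was 0.26 and 0.25 (adjusted p = 0.379 and 0.391). Gpt2, the mitochondrial enzyme, had 3.73, 3.47, 3.65 and 3.79 FPKM in HFHG and 4.29, 4.61, 4.17 and 3.93 FPKM in LG, and fell with a log2 fold change of -0.21 (SE 0.065, limma adjusted p = 0.0134), a call lost with FPKM rescaled to the same sum (adjusted p = 0.0811). The ratio of Gpt to Gpt2 overlapped between the groups (exact two-sided permutation p = 0.171).

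**Figure D3:**
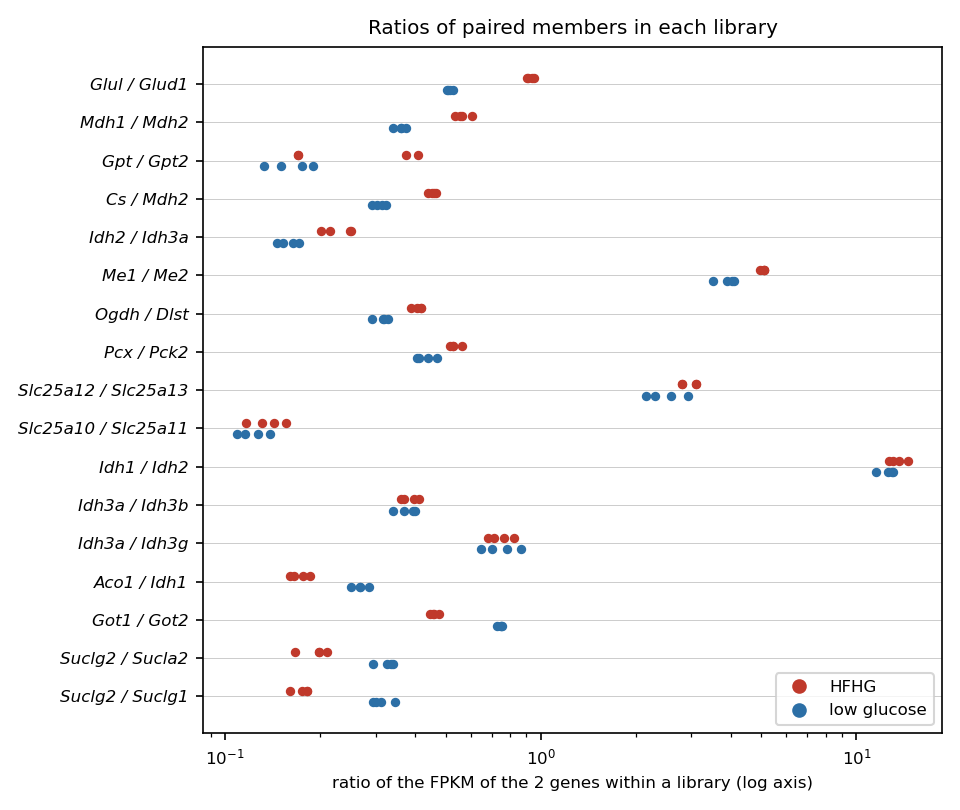
Ratio of the FPKM of paired members within each library (x axis, log scale) for the 17 pairs tested, with the 4 HFHG libraries in red and the 4 LG libraries in blue. The groups do not overlap in 11 pairs, among them Glul to Glud1 at 0.905 to 0.953 against 0.505 to 0.526, and they overlap in 6.

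Of the 5 mitochondrial carriers, 2 rose (40%, against 34% of all genes tested), 0 fell (30.8% of all genes tested) and 3 did not pass. Slc25a10, the dicarboxylate carrier, had 4.12, 4.62, 4.40 and 5.02 FPKM in HFHG and 3.54, 3.82, 3.54 and 3.58 FPKM in LG. Its groups did not overlap, and its log2 fold change was 0.32 (SE 0.069, limma adjusted p = 0.0015). Slc25a11, the malate and 2-oxoglutarate carrier of the malate-aspartate shuttle, had 35.2, 32.3, 33.6 and 32.1 FPKM in HFHG and 27.8, 27.6, 30.6 and 32.8 FPKM in LG. LG replicate 4 reached into the HFHG range, and the log2 fold change was 0.17 (SE 0.054, limma adjusted p = 0.0161), a call lost with median-ratio scaling and without HFHG replicate 1 or LG replicate 1 (adjusted p = 0.0567, 0.0514 and 0.0513). Slc25a1, the citrate carrier and the most abundant of the 5, was at 83.6 to 88.4 and 78.3 to 86.7 FPKM (log2 fold change 0.05, limma adjusted p = 0.156), and this change was 0.11 after scaling to equal sums and 0.12 after quantile normalization (adjusted p = 0.00227 and 0.00203). Without LG replicate 4 it was 0.08 (adjusted p = 0.0315), and without LG replicate 2 it was 0.03 (0.415). The aspartate-glutamate carriers Slc25a12 and Slc25a13 were at 5.15 to 5.32 and 1.66 to 1.90 FPKM in HFHG and at 4.79 to 5.37 and 1.80 to 2.34 FPKM in LG. Their log2 fold changes were 0.04 and -0.20 (limma adjusted p = 0.505 and 0.0949). That of Slc25a12 was -0.03 with quantile normalization, and Slc25a13 passed as lower with quantile normalization (adjusted p = 0.00866) and without LG replicate 3 (0.0400).

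Because a ratio within a library does not depend on the scaling between libraries, 18 pairs of isozymes, subunits or neighbouring enzymes were listed, and 17 were tested. The pair of Me3 and Me2 was not tested because Me3 was under the filter. In 11 pairs the groups did not overlap, each with an exact two-sided permutation p of 0.0286 (0.0442 after Benjamini-Hochberg adjustment over the 17 pairs), which is the smallest value that 4 libraries against 4 allow. Single genes were without overlap in 59.2% of all genes tested, and the share for ratios of other genes was not computed, so nothing particular to these pairs is read from the count. In Mdh1 to Mdh2, Suclg2 to Sucla2, Suclg2 to Suclg1, Cs to Mdh2 and Aco1 to Idh1, the separation was fixed beforehand. There each gene already separated the groups, in opposite directions, so the p-value adds nothing to the single-gene results. In the rest of the 11, the ranges of the 2 genes in each group also left no room for the ratios to overlap, however libraries were matched. Their p-values therefore add nothing to the single-gene ranges either. The log2 difference of the ratio was largest for Glul to Glud1 (0.85) and for Suclg2 to Suclg1 (-0.83). That of Aco1 to Idh1, the cytosolic enzymes of adjacent steps, was -0.63. In the 6 tested pairs outside these 11, the groups overlapped. Idh1 and Idh2 rose together, with a ratio of 13.5 ± 0.846 in HFHG and 12.5 ± 0.702 in LG (SD, n = 4 each; log2 difference 0.11, exact permutation p = 0.114), a difference that passed with a pseudocount of 1. The ratio of Slc25a12 to Slc25a13 was 2.95 ± 0.176 and 2.49 ± 0.340 (exact permutation p = 0.0857), and that of Slc25a10 to Slc25a11 was 0.137 ± 0.0169 and 0.123 ± 0.0129 (exact permutation p = 0.2; SD, n = 4 each).

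**Figure D4:**
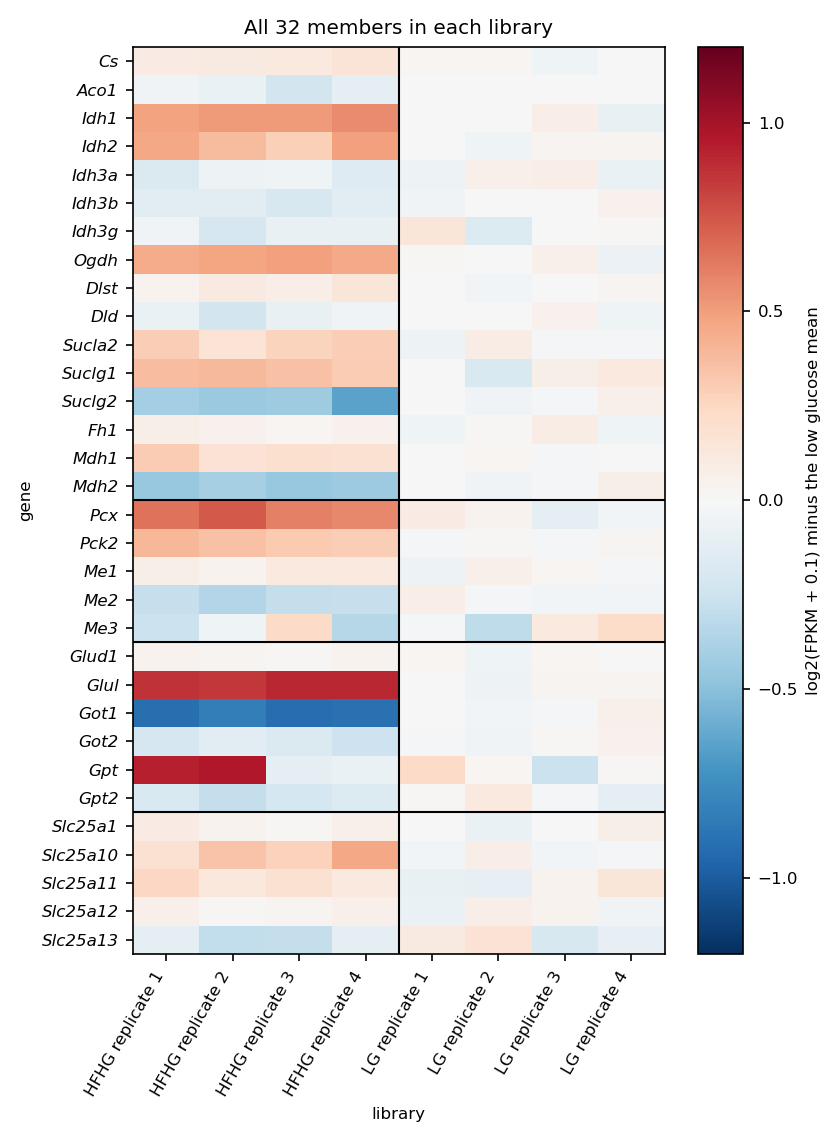
Log2(FPKM + 0.1) of all 32 members (rows, with lines between the 4 roles) in each of the 8 libraries (columns), as the difference from the mean of the 4 LG libraries of the same gene (colour, from -1.2 to 1.2). The 4 HFHG columns have similar colours in Glul, Got1, Pcx and Idh1, while Gpt is high in HFHG replicates 1 and 2 only and Me3 varies within both groups.

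A companion list of 52 other genes of the cycle, of pyruvate entry, of glutamine and glutamate and of textbook regulators was read from the same fit. Of the 48 tested, 12 rose (25.0%, against 34% of all genes tested) and 20 fell (41.7%, against 30.8%) at an adjusted p below 0.05, and with FPKM rescaled to the same sum 18 rose and 17 fell. In the cycle itself, Sdha, the flavoprotein of succinate dehydrogenase, rose slightly, with a log2 fold change of 0.10 (limma adjusted p = 0.00608). The call of Sdha was lost with median-ratio scaling (adjusted p = 0.0556). The other succinate dehydrogenase subunits Sdhb, Sdhc and Sdhd had log2 fold changes of -0.03, 0.02 and -0.03 (limma adjusted p = 0.398, 0.628 and 0.583), and the sign of each depended on the scaling. Of the 12 pyruvate entry genes, 4 rose (33.3%) and 2 fell (16.7%), against 34% and 30.8% of all genes tested. Pdk4, a kinase that inhibits pyruvate dehydrogenase, had 48.5, 49.2, 49.6 and 49.2 FPKM in HFHG and 1.87, 2.04, 1.63 and 1.91 FPKM in LG (log2 fold change 4.65, limma adjusted p = 2.25e-14).

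Of the 12 other glutamine and glutamate genes tested, 1 rose (8.33%, against 34% of all genes tested) and 8 fell (66.7%, against 30.8%). Gls2, a glutaminase, was low, with 0.914, 1.02, 0.804 and 0.539 FPKM in HFHG and 1.17, 1.195, 1.21 and 1.35 FPKM in LG, and it fell (log2 fold change -0.56, limma adjusted p = 0.00728). Psat1, a transaminase of serine synthesis that uses glutamate, fell from 74.4 ± 1.62 to 37.1 ± 1.70 FPKM, and Pycr1, which makes proline, rose from 3.64 ± 0.350 to 6.82 ± 0.455 FPKM (SD, n = 4 each; log2 fold changes -1.002 and 0.89, limma adjusted p = 8.86e-11 and 4.51e-07). Of the 14 regulators tested, 4 rose (28.6%) and 8 fell (57.1%), against 34% and 30.8% of all genes tested. Txnip, a glucose-responsive inhibitor of thioredoxin, rose with a log2 fold change of 5.97. Ddit3, a transcription factor of the stress response, and Myc, which activates glutamine use in many cells, fell with log2 fold changes of -1.57 and -1.04 (limma adjusted p = 9.22e-16, 2.46e-12 and 2.18e-08). Of the 2 genes that oxidize 2-hydroxyglutarate, 1 rose (50%, against 34% of all genes tested).

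At least 1000 reads stood behind 26 of the 32 members in every library, and the others were Idh2, Me3, Gpt, Gpt2, Slc25a10 and Slc25a13. The length behind the FPKM was more than 1.5 times the longest GENCODE transcript in 6 members (Idh2, Ogdh, Me2, Me3, Gpt2 and Slc25a10), and it was above the union of the GENCODE exons in 7 (Idh2, Ogdh, Me2, Gpt2, Slc25a10, Slc25a12 and Slc25a13). Levels and ratios of these genes depend on that length, and whether reads from outside the annotated exons entered their fold changes was not tested. In 7 members a protein-coding gene on the opposite strand overlaps (among them Nop56 at Idh3b, Kmo at Fh1, Wdpcp at Mdh1, Lrfn4 at Pcx, Teddm2 at Glul and Rnf167 at Slc25a11), and whether the counting used strand is not given in the sources used here. Without LG replicate 4, the library that stood apart, 14 members rose and 9 fell. The count of members past a log2 fold change of 0.5 was then 3, with Idh1 at 0.49.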

How the data were processed

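mRNA libraries of TSCs, 4 from HFHG and 4 from LG cultures, were grouped by their labels. The authors deposited FPKM per gene. The submitters' processing notes name HISAT2 2.1.0 and mm10. The counting program, the annotation and any filter are not given in the sources used here. All per-sample columns were used. The whole reads behind the FPKM were recovered for 19301 of 19301 genes (100% whole) by finding library totals and gene lengths that make every value a whole number, and 99.8% of the totals lay on listed genes. This search and the fit were tested on simulated data.

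Genes reaching 0.5 FPKM in 4 or more libraries were tested (11710 genes) with limma 3.58.1 in R 4.3.3, on log2(FPKM + 0.1), with an intensity trend and the medium as the only term, and p-values were adjusted over all genes tested by the Benjamini-Hochberg method. The scale understates changes of low genes. Pairs and Me3 were compared by exact two-sided permutation (scipy 1.17.1, Python 3.11.15) over 70 arrangements. The members and lists were chosen with earlier results of these data known. Per-library values are given for members with a called log2 fold change of at least 0.5 in size or among the 8 largest, under the filter, or in a pair described. Of the companion list, the Sdh genes, Gls2 and the 6 largest called changes are named, and some results of the rule are not reported here. Motifs were counted in RefSeq windows of GRCm38.p6, and gene positions are from RefSeq. Transcript lengths and overlapping genes are from GENCODE M21. The sources call the cultures biological replicates without saying which share animals, so p-values measure the spread between these samples.

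Alternatives were pseudocounts of 1 and 0.01, no filter or a 1 FPKM minimum, scaling to equal sums, by median ratios or by quantiles, a robust or untrended variance model, voom on the recovered reads, the replicate number as a block, and each library left out.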

Additional observations from a re-analysis of the deposited data

Results flagged for a closer look

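In 5 of the 64 groups of 4 values (32 members in 2 media), the highest or lowest library lay farther from its neighbour than Dixon's test allows at 95%, where chance gives about 1 in 20. Suclg2 was 6.96 FPKM in HFHG replicate 4 and 8.03 to 8.23 FPKM in the other HFHG libraries. Mdh1 was 83.9 FPKM in HFHG replicate 1 and 76.6 to 77.6 FPKM in the others. Me2 was 6.90 FPKM in HFHG replicate 2 against 7.26 to 7.31 FPKM, and 9.34 FPKM in LG replicate 1 against 8.65 to 8.77 FPKM. Slc25a10 was 3.82 FPKM in LG replicate 2 and 3.54 to 3.58 FPKM in the other LG libraries. In all 5 cases the groups stayed apart, and the calls of these 4 genes held without the library concerned.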

How the results depend on the processing

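Of the 23 members called, 17 kept their direction and call in all 19 alternatives, and 6 (Aco1, Dlst, Dld, Me1, Gpt2 and Slc25a11) lost the call in some. Of the 8 not called, 7 passed in some, the exception being Slc25a12. Over all alternatives, 11 to 17 members rose and 6 to 11 fell, and over the fits without 1 library 12 to 14 rose and 8 to 9 fell. The replicate block gave 13 and 10. It lost the calls of Aco1 and Me1 (adjusted p = 0.0588 and 0.0777) and added Idh3a and Idh3g (0.0239 and 0.0289), and over all genes it gave 3841 higher and 3501 lower in place of 3983 and 3609. Same-numbered libraries did not deviate together (correlations of -0.074 to -0.0056, against -0.046 to 0.070 for libraries of different numbers). With 4 libraries per group, this cannot exclude that the numbers pair the samples. No scaling moved the median of all genes by more than 0.059 on the log2 scale. Signs turned for Glud1 (-0.0032) and Sdhc (-0.0175) with median-ratio scaling, for Slc25a12 with quantile normalization (-0.0294), and for Sdhb (0.0260) and Sdhd (0.0259) with the same sum, none of which was called. Without 1 library, Sdhc ranged from -8.03e-05 to 0.0446, and the log2 differences of the ratios of Idh3a to Idh3b and to Idh3g from -0.00917 to 0.0647 and from -0.0709 to 0.0719. With a pseudocount of 1, the ratios of Idh1 to Idh2 (0.17) and of Gpt to Gpt2 (0.41) no longer overlapped. For Gpt to Gpt2 this was practically a tie, as HFHG replicate 4 and LG replicate 1 had nearly equal ratios. For the results that changed, the cause was not tested. With 4 libraries against 3, the smallest exact p is 0.0571, so leaving out a library says nothing about the pair calls. Among the members, Gpt (35 to 93) and Me3 (124 to 205) had the fewest reads per library.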
